A study of Homo sapiens with 24 samples.

Results

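KG-1 is an established human acute myeloid leukemia line with the features of an early, CD34-positive myeloblast. It carries a fusion of the tyrosine kinase FGFR1 with FGFR1OP2, a known feature of the line. The data described here are its 6 arrays, chosen as all samples whose label names KG-1, of 24 arrays in the series. In 3 of them the cells had received 4 µM R406 for 24 h, and in the other 3 the solvent dimethyl sulfoxide (DMSO) for the same time. The dose is taken from the treatment protocol. The design text of the series has the same figure in mM. The other 18 arrays come from MOLM-14, U937 and HL-60 cells under the same pair of treatments, 3 arrays a group. They serve below for comparison between lines and for the variance of each gene, which the fit takes from all 24 arrays. The SE and adjusted p of a KG-1 change thus also draw on the spread within the other lines. The labels name no transgene or knockdown for any group, and they do not say that the arrays of a group came from separate cultures. Every p-value therefore measures the spread between arrays, which may be technical.

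Fostamatinib is the oral prodrug of R406, a compound that blocks SYK, a cytoplasmic tyrosine kinase, and a range of further kinases. SYK docks on phosphorylated ITAM motifs of immune receptor chains and passes signals from these receptors and from integrins to phospholipase C, PI3-kinase and the RAS-ERK cascade. In cells driven by an active tyrosine kinase, ERK maintains transcripts of its own feedback regulators, STAT5 maintains cytokine-response genes, and MYC maintains the genes that build ribosomes. The title of the series names integrin beta 3 signalling in leukemia, and the comparison described here shows which transcripts of KG-1 cells differed after R406.

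The labelled cell type was checked in DMSO against a list of myeloid line markers, of which 10 were measured and 2 had a mean under 20. KIT and FGFR1 are not on that list and are given beside it. The stem cell antigen CD34 had an intensity of 613 ± 103 (SD, n = 3 arrays) in KG-1, against group means of 17.0 to 18.1 in the other 3 lines. The receptor kinase KIT stood at 228 ± 13.8 in KG-1 and at 14.1 to 37.0 in the others. FGFR1 was at 323 ± 11.6 in KG-1 and 288 ± 25.5 in MOLM-14, and at 24.2 and 27.1 in U937 and HL-60. The leukocyte antigen PTPRC (CD45) was at 1033 ± 46.9 and the myeloid transcription factor CEBPA at 468 ± 21.3. The monocyte antigen CD14, at 5.56 ± 0.27, the transcription factor SPI1, at 15.1 ± 0.27, and the granule enzyme myeloperoxidase MPO, at 28.5 ± 3.63, lay low or near the median intensity of an array, which ran from 20.4 to 21.4 over the 6 KG-1 arrays. ITGAM (CD11b), a chain of the myeloid complement receptor, and the aminopeptidase ANPEP (CD13) lay far above that median, with intensities given further below. The ITGAM probe set used can bind transcripts of related genes.

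R406 replicate 2 stood apart from the other R406 arrays. On the log2 scale its genes lay a median of 0.138 from the mean of the other 2 arrays of its group, against 0.112 and 0.109 for R406 replicates 1 and 3 and 0.084 to 0.093 for the DMSO arrays. It held 98 genes more than 1 log2 unit away from that mean, while the other 5 KG-1 arrays held between 0 and 7. The log2 ratio of the 3' to the 5' control probe set of ACTB, a measure of RNA integrity in which a higher value means fewer complete molecules, was 0.687, 0.764 and 0.734 in DMSO and 0.793, 0.967 and 0.795 in R406, with replicate 2 highest. The R406 arrays all lay above the DMSO arrays by a mean of 0.123 (2-sided exact permutation test, p = 0.1, the smallest that 3 against 3 arrays allow). For GAPDH the ratios were -0.103, -0.175 and -0.220 in DMSO and -0.067, -0.039 and -0.088 in R406, again without overlap (difference 0.101, exact permutation p = 0.1). The part of RNA integrity in the results below was not tested. Repeating the quantile normalization reduced the ACTB difference to 0.00985 (exact permutation p = 0.8). Counts of called list members that differ without R406 replicate 2 are given beside the results below. Changes and medians without it are given only for some genes and lists, so a value printed alone may still depend on it.

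Of 12165 genes tested, 2870 (23.6%) were higher and 2540 (20.9%) lower after R406 at an adjusted p under 0.05 (limma, Benjamini-Hochberg over all genes). This is 44.5% of genes in either direction, beside 56.2% in MOLM-14, 11.5% in U937 and 15.2% in HL-60. A change of at least 2-fold was reached by 422 of the higher (3.47% of all genes) and 537 of the lower genes (4.41%). Without R406 replicate 2, 2689 genes were higher (22.1%) and 2358 lower (19.4%). Both analyses called 2542 genes higher (20.9%) and 2280 lower (18.7%), and no gene was called in opposite directions. Most changes were small, and a call alone says little about size: the counts for gene groups below are to be read against 23.6% and 20.9%, and the median log2 change of all genes was 0.020.

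**Figure D1:**
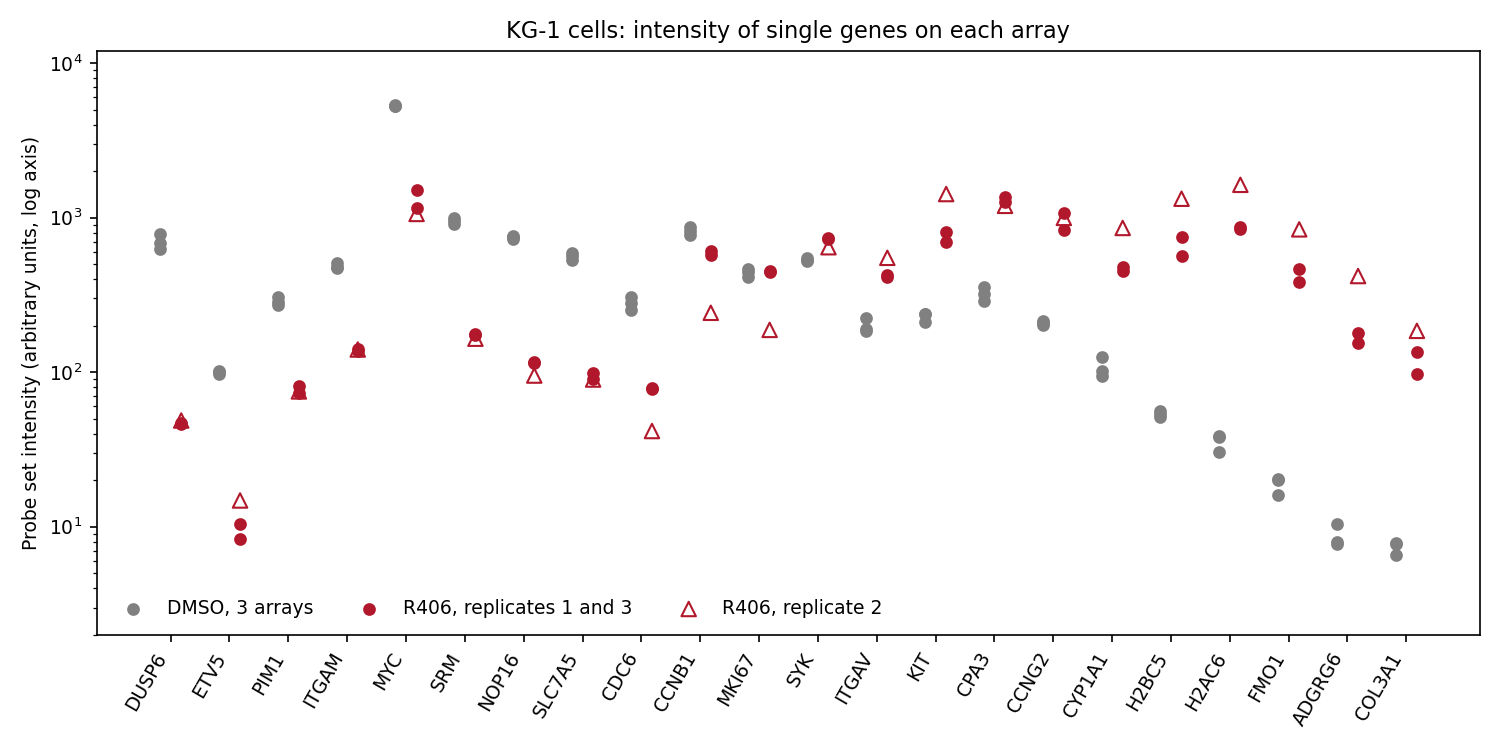
Intensity of 22 genes on each KG-1 array (log axis, arbitrary units): grey circles are the 3 DMSO arrays, filled red circles R406 replicates 1 and 3, and open triangles R406 replicate 2. DUSP6 falls from 630.2 or more to 48.7 or less, FMO1 climbs from 20.2 or less to 386 or more, and for CCNB1 and MKI67 the triangle lies apart from both other R406 arrays.

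The transcripts of ERK signalling showed a large loss of a few feedback genes, smaller falls of several others and little change in the rest. DUSP6, the phosphatase that inactivates ERK, had intensities of 689, 782 and 630.2 in DMSO and of 47.2, 48.7 and 46.4 in R406. All R406 arrays lay more than 10-fold under all DMSO arrays, and the fall was 14.4-fold (log2 change -3.85 ± 0.10, SE, adjusted p = 2.03e-17). ETV5, an ETS factor that ERK activates, went from 102, 97.8 and 101 to 10.4, 14.8 and 8.38 (-3.09 ± 0.12, adjusted p = 6.40e-15). SPRED2, an inhibitor of RAS-ERK signalling, went from 145, 138 and 121 to 42.6, 25.4 and 36.1 (-1.95 ± 0.12, adjusted p = 5.77e-12), on 1 of its 3 probe sets. The groups did not overlap for any of these genes, as for 49.8% of all genes in either direction. The phosphatases DUSP5 and DUSP4 fell by 1.15 and 0.82 on the log2 scale. SPRY4, ETV4 and SPRY2, 2 feedback inhibitors and an ETS factor, fell by 0.55, 0.47 and 0.25. SPRY1 was the exception, with 0.37 ± 0.14 (adjusted p = 0.0411, and 0.0612 without R406 replicate 2).

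In all, 8 of the 17 measured ERK output genes fell and 1 rose, with a median log2 change of -0.25 (-0.12 with a pseudocount of 16). The 8 that did not pass include the immediate early genes EGR1 (-0.031 ± 0.19), FOS (-0.12 ± 0.22) and EGR3 and the cyclin CCND1 (0.033 ± 0.11). EGR1, with DMSO intensities of 9.78 to 12.3, and FOS, with 10.7 to 16.9, lay below the array median in both groups, which limits the size of a fall that could be seen. Among the 18 measured immediate early genes, 4 rose and 3 fell (3 and 2 without R406 replicate 2), and 12 of the 18 had a DMSO mean under 20. The best supported of them was the fall of the ERK phosphatase DUSP2, from 68.5, 68.2 and 62.9 to 26.4, 19.5 and 26.3 (-1.44 ± 0.14, adjusted p = 1.76e-08). Of the 4 that rose, KLF6 gave -0.12 and was not called with probe sets that can bind several transcripts left out. The kinase MAP2K1 (MEK1) itself fell by 0.33 (SE 0.072, adjusted p = 4.64e-04).

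The genes that encode SYK and its partners were higher, not lower. SYK had intensities of 549, 523 and 534 in DMSO and 730.1, 643 and 739 in R406, a gain of 1.31-fold without overlap (0.39 ± 0.065, adjusted p = 2.49e-05). Of 18 measured members of SYK and ITAM signalling, 14 rose and none fell (23.6% and 20.9% of all genes), with a median of 0.37. The ITAM adaptor TYROBP (DAP12) rose most, from 42.1, 38.0 and 40.7 to 114, 155 and 115 (1.63 ± 0.097, adjusted p = 4.42e-12). The inhibitory phosphatase PTPN6 (SHP-1) rose from 413, 409 and 437 to 782, 859 and 721 (0.90 ± 0.075, adjusted p = 9.17e-10). The kinase LYN, which phosphorylates ITAMs, rose from 2998, 3087 and 2752 to 4783, 4689 and 4852 (0.70 ± 0.077, adjusted p = 7.42e-08). The receptor chain FCER1G, the kinase BTK and the phospholipase PLCG2 rose by 0.70, 0.62 and 0.34. Without R406 replicate 2, VAV1 and PIK3CD dropped out (0.15 and 0.16), which left 12 of 18. BLNK, CARD9, CBL and SH3BP2 did not pass.

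FGFR1 rose as well, from 334, 324 and 310.4 to 562, 568 and 503 (0.75 ± 0.12, adjusted p = 8.76e-06), and 4 of its 6 probe sets were called in this direction and none in the other. The arrays do not separate the fusion transcript from normal FGFR1. Of the 9 measured genes of FGFR1 signalling, the docking protein GAB1 (0.32) and the RAS exchange factor SOS1 rose with it, MAP2K1 fell, and 5 did not pass. SOS1 went from 229.5, 268 and 229 to 466, 914 and 482, where R406 replicate 2 was the highest array (1.28 ± 0.20, and 0.97 without that array).

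Integrin transcripts moved in both directions. ITGAV, the alpha chain that pairs with integrin beta 3, rose from 191, 224 and 185 to 424, 549 and 413 (1.20 ± 0.13, adjusted p = 5.68e-08). ITGB3 itself stood at 8.15, 7.32 and 7.51 in DMSO and at 9.52, 8.39 and 8.31 in R406. These values are far below the array median, and the change of 0.17 ± 0.12 did not pass (adjusted p = 0.305), nor did any of its 7 probe sets. The lymphocyte integrin chain ITGAL rose from 846, 926 and 774 to 2299.7, 2523 and 2174 (1.46 ± 0.087, adjusted p = 4.92e-12), and ITGA4 by 0.76, ITGA5 by 0.44 and the common beta chain ITGB1 by 0.30, the last on 1 of its 5 probe sets, while its specific probe set gave -0.088 and was not called. ITGA2B, the platelet integrin chain, fell from 54.7, 82.4 and 89.7 to 30.2, 27.6 and 34.7 (-1.24 ± 0.13, adjusted p = 3.95e-08). ITGAM (CD11b), a chain of the myeloid complement receptor, fell from 510.3, 478 and 472 to 141, 140.1 and 136 (-1.80 ± 0.085, adjusted p = 1.20e-13). Its probe sets disagree: the brighter can bind transcripts of related genes, and the other gave 0.10 and was not called. Of 16 measured genes, 8 rose and 3 fell, and without R406 replicate 2 the fall of ITGB2 (-0.17 with all arrays) no longer passed.

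The STAT5 target list fell together, and the lines differed in this. PIM1, a survival kinase induced by STAT5, went from 286, 305 and 271 to 81.7, 75.0 and 73.0, a fall of 3.71-fold without overlap (-1.89 ± 0.10, adjusted p = 1.25e-12). ID1, an inhibitor of differentiation factors, went from 181, 137 and 131 to 28.0, 16.5 and 30.5 (-2.56 ± 0.20, adjusted p = 4.06e-10). CISH, the cytokine signalling inhibitor and a classic STAT5 target, went from 136, 128 and 142 to 66.2, 80.2 and 64.7 (-0.94 ± 0.11, adjusted p = 1.85e-07). The D cyclins CCND2 and CCND3 fell by 0.72 and 0.52, the survival gene BCL2L1 by 0.57, SOCS2 by 0.62, OSM by 0.48, PIM2 by 0.37 and IL2RA by 0.30. Thus 10 of 13 measured members fell, with a median of -0.52. SOCS1 and SOCS3, at intensities of 11.4 to 16.2, did not pass. BCL6, a gene that STAT5 represses, was the member that rose, from 14.2, 12.8 and 10.9 to 53.6, 41.9 and 74.8 (2.05 ± 0.15, adjusted p = 9.26e-11). All these calls held without R406 replicate 2. The median change of the list was -0.051 in MOLM-14, 0.024 in U937 and 0.034 in HL-60. For 8 of the 13 genes the change in KG-1 was below the mean change of the other lines (adjusted p under 0.05 for the difference itself, passed by 15% of all genes in this direction).

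The list with the most negative median of the 41 held MYC and genes of ribosome biogenesis, which process ribosomal RNA and assemble ribosomal subunits. MYC had intensities of 5292, 5316 and 5257 in DMSO and 1510.0, 1056 and 1161 in R406, a fall of 4.30-fold (-2.11 ± 0.091, adjusted p = 3.23e-14). SRM, the spermidine synthase, went from 948, 911 and 988 to 175, 165 and 175 (-2.46 ± 0.059, adjusted p = 5.90e-18). NOP16, a nucleolar protein, went from 752, 725 and 755 to 117, 95.1 and 115 (-2.76 ± 0.075, adjusted p = 2.49e-17). For all 3 genes every R406 array lay far below every DMSO array. BOP1 and MRTO4, assembly factors of the large subunit, fell by 2.68 and 2.49, and the polyamine enzyme ODC1 by 1.63. The small-subunit factor PNO1, which is not on this list and was named for its large fall, fell by 2.52. The abundant nucleolar proteins fell less: NCL by 0.89, FBL by 0.71 and NPM1 by 0.19. Of 20 measured members, 19 fell, none rose and all 20 had R406 arrays entirely below the DMSO arrays (23.2% of all genes did so). The median was -1.65, or -1.53 without R406 replicate 2. POLR1B was the member that did not pass (-0.23 ± 0.11, adjusted p = 0.114). Without R406 replicate 2, POLR1B passed and NPM1 did not (adjusted p = 0.0544). The transcripts of the ribosomal proteins did not follow: 5 of 15 rose, none fell and the median was 0.12. For RPL18 and RPS14, members of these 5, the mean of the gene's probe sets gave -0.0049 and -0.097. With probe sets that can bind several transcripts left out, RPS14 was called lower (-0.42, limma adjusted p = 0.00465).

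MYC is known to bind the E-box, whose letters CACGTG read the same on both strands. To show members that fell together with a match, the promoter windows of SRM and MRTO4 are printed from 250 bases before to 50 bases after the annotated start (RefSeq, GRCh38.p14). They are the members with the smallest p whose window holds the motif, which is in capitals. Members on the chromosome that carries MYC were left out of this choice. SRM lies at chr1:11059969-11060268 on the minus strand and MRTO4 at chr1:19251555-19251854 on the plus strand.
SRM: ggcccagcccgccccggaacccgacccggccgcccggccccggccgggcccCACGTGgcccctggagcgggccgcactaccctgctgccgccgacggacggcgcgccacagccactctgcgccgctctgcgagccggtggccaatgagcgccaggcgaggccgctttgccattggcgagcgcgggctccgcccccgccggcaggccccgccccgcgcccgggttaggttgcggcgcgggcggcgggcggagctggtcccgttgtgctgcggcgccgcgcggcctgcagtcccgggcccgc
MRTO4: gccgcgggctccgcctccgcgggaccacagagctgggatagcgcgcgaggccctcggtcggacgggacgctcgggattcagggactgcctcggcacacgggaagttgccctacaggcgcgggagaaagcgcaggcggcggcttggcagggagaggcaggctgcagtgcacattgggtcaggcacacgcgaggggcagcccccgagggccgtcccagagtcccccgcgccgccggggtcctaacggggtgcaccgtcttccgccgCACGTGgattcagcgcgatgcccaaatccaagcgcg
A promoter window was found for 15 of the 20 measured members, and 6 of them (40.0%) held CACGTG, against 7.43% of all 27305 windows of this length and 9.43% of the 9711 windows of measured genes. A match is a string of letters in the reference and was not tested for binding.

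Protein folding and degradation transcripts fell beside those of ribosome assembly. Of 14 measured heat shock proteins, 12 fell and none rose, with a median of -0.995. HSPE1, the small subunit of the mitochondrial chaperonin, went from 2014, 2255 and 1922 to 391, 322 and 413 (-2.46 ± 0.11, adjusted p = 1.07e-13), and its partner HSPD1 fell by 1.31. HSPH1, a cytosolic chaperone, went from 1158, 1276 and 1229 to 309.6, 256 and 361 (-1.99 ± 0.097, adjusted p = 2.04e-13). HSPA8 and HSP90AA1, the abundant cytosolic chaperones, fell by 1.02 and 0.61, and HSF1 and BAG3 did not pass. Of 23 measured proteasome subunits, 22 fell, with a median of -0.80 (-0.65 without R406 replicate 2). Replicate 2 lay below both other R406 arrays for 22 of the 23, against 37.7% of all genes. The regulatory subunit PSMD1 went from 818, 769 and 805 to 385, 249.6 and 352 (-1.30 ± 0.10, adjusted p = 2.97e-10), and the core subunit PSMA3 from 1818, 1933 and 1998 to 949, 726 and 965 (-1.13 ± 0.091, adjusted p = 6.02e-10). PSMB4 was the subunit that did not pass (-0.12 ± 0.063, adjusted p = 0.125). The proteasome median was -0.84 in MOLM-14, -0.14 in U937 and 0.012 in HL-60.

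Mitochondrial and glycolytic genes fell by smaller amounts. Of 17 measured oxidative phosphorylation genes, 13 fell and NDUFB5 rose (0.33 ± 0.059), with a median of -0.41. The cytochrome CYC1 had the clearest fall, from 1854, 1673 and 1652 to 905, 668 and 813 (-1.13 ± 0.082, adjusted p = 1.06e-10). Without R406 replicate 2, NDUFS3 and ATP5F1A did not pass and 11 remained called lower, with a median of -0.31. Of 22 glycolysis and hypoxia genes, 16 fell, with a median of -0.68. With probe sets that can bind several transcripts left out, 7 of 11 fell, with a median of -0.29. Lactate dehydrogenase LDHA went from 6033, 5737 and 5763 to 2547, 1964 and 2574 (-1.32 ± 0.078, adjusted p = 4.23e-12). The first enzyme of glycolysis, HK2, fell by 0.85, the glucose transporter SLC2A1 by 1.00 and the growth factor VEGFA by 1.08. NDRG1, a stress-responsive gene, was the member that rose (1.14 ± 0.099).

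Most genes of the ATF4-driven integrated stress response, which hold transporters and enzymes of amino acid supply, fell. PSAT1, an enzyme of serine synthesis, went from 191, 169.6 and 225 to 38.0, 21.6 and 28.5 (-2.72 ± 0.19, adjusted p = 9.12e-11). SLC7A5, the transporter of large neutral amino acids, went from 565, 535 and 592 to 99.3, 89.6 and 90.3 (-2.59 ± 0.084, adjusted p = 6.23e-16). The arginine transporter SLC7A1, the serine enzyme PHGDH, the glutamine transporter SLC1A5 and the asparagine synthetase ASNS fell by 1.31, 1.32, 1.04 and 0.72. Of 24 measured genes of this list, 20 fell and 2 rose, with a median of -0.72, and the counts were the same without R406 replicate 2. The letters TGATGNAA, a core of sites that ATF4 binds, stood on either strand in 6 of 21 promoter windows found for the list (28.6%) and in 3.67% of all windows. The transcript of ATF4 itself, at 2481 to 2675 in DMSO and 2456 to 2588 in R406, overlapped between the groups (-0.023 ± 0.059, adjusted p = 0.813). The members that rose were DDIT3 (CHOP), a stress-induced transcription factor, from 20.8, 25.7 and 24.2 to 55.6, 65.6 and 60.1 (1.32 ± 0.11), and DDIT4 (REDD1), an inhibitor of the growth kinase mTORC1, from 112, 102 and 118 to 242, 280.3 and 267 (1.24 ± 0.076). Of 17 unfolded protein response genes, 10 fell and 3 rose (9 and 3 without R406 replicate 2), with the chaperone HSPA5 (BiP) at -0.97 ± 0.11 and the factor XBP1 at -0.72 ± 0.081. Of the 3 that rose, DNAJB9 rests on 1 of its 2 probe sets, and the other gave -0.065.

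In cholesterol synthesis 11 of 16 measured genes fell and none rose, with a median of -0.63. HMGCS1, which makes the precursor HMG-CoA, went from 537, 493 and 425 to 158, 124 and 183 (-1.65 ± 0.12, adjusted p = 1.41e-10), and the farnesyl synthase FDPS fell by 0.82. SREBF2, the factor that drives the pathway, did not pass (-0.31 ± 0.14, adjusted p = 0.0972), and neither did INSIG1 (-0.24 ± 0.10, adjusted p = 0.0546). The letters CACCCCA, a core of sterol response elements, stood on either strand in 4 of 15 windows (26.7%) and in 7.83% of all windows.

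**Figure D2:**
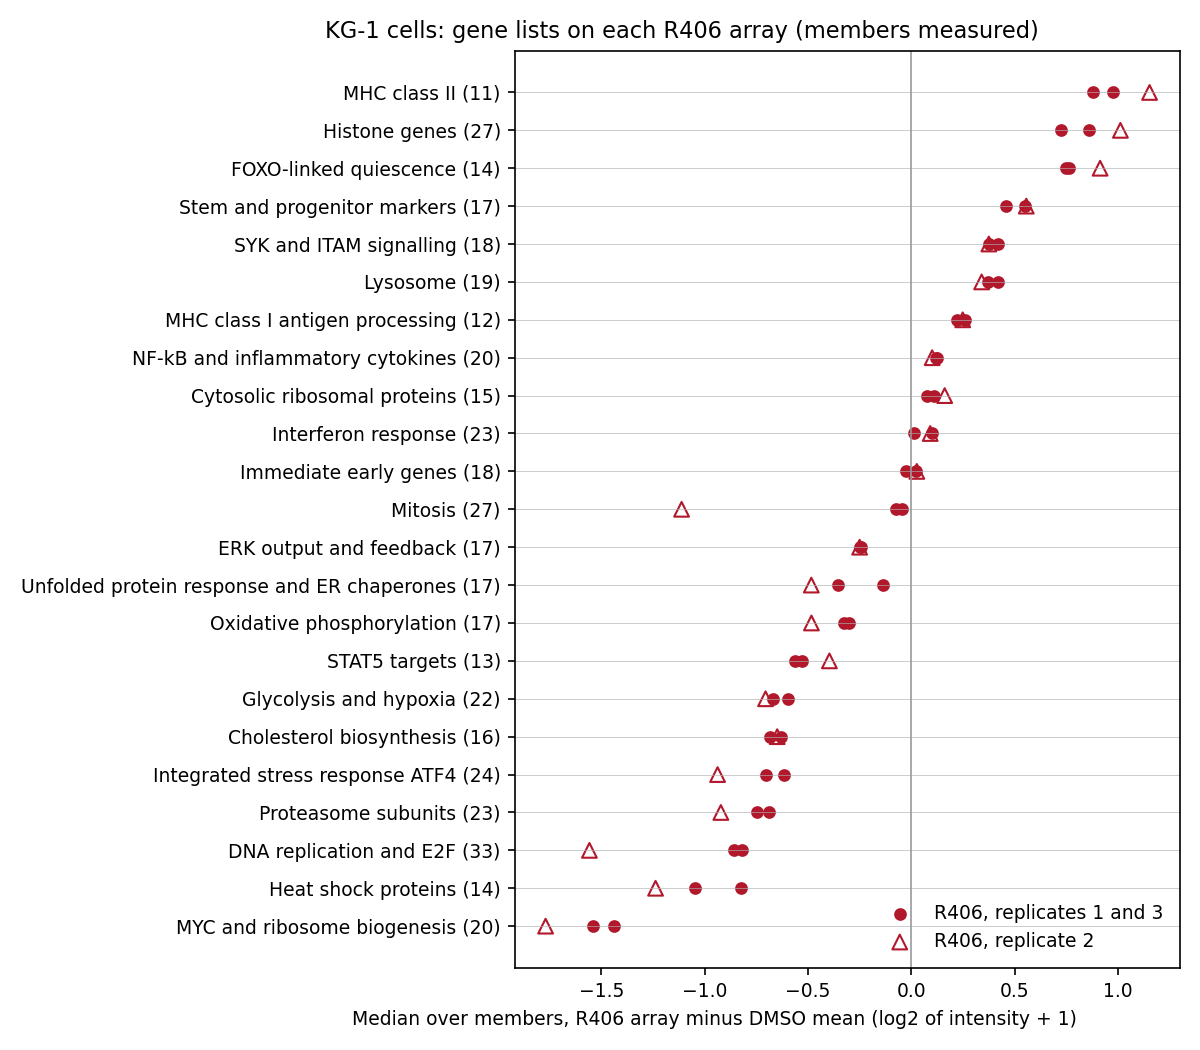
Median over the measured members of 23 gene lists of the log2 intensity on each R406 array minus the mean of the 3 DMSO arrays, with the number of members in brackets: filled circles are R406 replicates 1 and 3 and open triangles replicate 2. For most lists the 3 points lie close together, while for mitosis replicate 2 lies at -1.11 and the others at -0.07 and -0.04. For DNA replication and E2F it also lies apart, at -1.56 against -0.82 and -0.86.

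DNA replication genes were lower on all 3 R406 arrays, and mitotic genes were lower mainly on R406 replicate 2. Of 33 measured genes of DNA replication and of the E2F program, 30 fell and none rose, with a median of -1.10. CDC6, the loading factor of the replicative helicase, went from 254, 307 and 278 to 77.9, 41.6 and 79.3 (-2.12 ± 0.18, adjusted p = 1.15e-09). UNG, the uracil DNA glycosylase, went from 1020.4, 1143 and 1106 to 424, 333 and 403 (-1.50 ± 0.081, adjusted p = 9.61e-13). The helicase subunit MCM7 went from 609, 598 and 605 to 278, 227 and 309 (-1.16 ± 0.080, adjusted p = 4.50e-11), and the sliding clamp PCNA from 2490.4, 2942 and 2637 to 1565, 1054 and 1674 (-0.93 ± 0.11, adjusted p = 1.84e-07). For each of them R406 replicate 2 was lowest, and no R406 array reached a DMSO array. Replicate 2 lay below both other R406 arrays for all 33 genes, as for 37.7% of all genes. The median by array was -0.82, -1.56 and -0.86 for R406 replicates 1, 2 and 3. Without replicate 2, 29 fell with a median of -0.88, E2F1 was no longer called (-0.19) and the licensing factor CDT1 was called higher (0.46). Since whole cultures were measured, fewer cells in S phase and less of each transcript per cell cannot be told apart.

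For the E2F factors the motif searched was TTGGCGC on both strands, and matches on opposite strands may overlap. The promoter windows of UNG (chr12:109097347-109097646, plus strand) and MCM7 (chr7:100101348-100101647, minus strand) are the windows of the replication genes with the smallest p that hold it, and are printed like those above with the match in capitals. The chromosome that carries MYC was again left out of the choice.
UNG: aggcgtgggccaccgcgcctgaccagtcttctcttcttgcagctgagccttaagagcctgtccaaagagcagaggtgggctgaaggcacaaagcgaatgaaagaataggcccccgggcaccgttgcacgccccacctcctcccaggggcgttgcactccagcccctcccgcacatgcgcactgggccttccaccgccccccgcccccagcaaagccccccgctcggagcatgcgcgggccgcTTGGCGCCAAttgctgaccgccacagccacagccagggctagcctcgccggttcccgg
MCM7: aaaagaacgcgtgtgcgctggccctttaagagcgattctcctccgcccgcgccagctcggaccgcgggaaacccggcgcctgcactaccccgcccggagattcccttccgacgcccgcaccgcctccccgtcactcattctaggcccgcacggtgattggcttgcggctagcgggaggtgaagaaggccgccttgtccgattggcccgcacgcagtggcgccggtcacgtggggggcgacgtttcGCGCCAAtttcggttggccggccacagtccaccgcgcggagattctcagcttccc
The motif stood in 11 of 29 windows found for this list (37.9%), against 3.12% of all 27305 windows and 4.52% of those of measured genes.

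Mitotic transcripts depended on the array. Cyclin CCNB1 had intensities of 814, 865 and 766 in DMSO and of 576, 242 and 608 in R406, so that all R406 arrays were lower but replicate 2 was much the lowest. Its change was -0.89 ± 0.20 (adjusted p = 7.10e-04) and -0.46 without replicate 2. The proliferation antigen MKI67 stood at 462, 415 and 443 in DMSO and at 452, 188 and 443 in R406: replicates 1 and 3 lay among the DMSO arrays, and the change was -0.39 ± 0.19 (adjusted p = 0.111) or 0.027 without replicate 2. The kinetochore protein CENPF, at 619, 586 and 648 in DMSO, stood at 782, 342 and 821 in R406, with 2 arrays above and 1 below DMSO. Replicate 2 lay below both other R406 arrays for 27 of the 27 mitotic genes, by a median of 1.13 on the log2 scale, against 37.7% of all genes. With all arrays 14 of 27 fell and none rose, with a median of -0.43. In a fit of the KG-1 arrays alone 5 fell, and with array weights 8 fell and 1 rose, with a median of -0.18. Without replicate 2, 8 fell and 6 rose, with a median of -0.07. The 6 that rose then were ASPM (0.49), CENPF (0.38), CENPE (0.35), NUSAP1 (0.28), TOP2A (0.24) and CCNB2 (0.23), and the 8 that fell with either set of arrays were AURKB, BIRC5, BUB1B, CCNA2, CCNB1, CDC20, CENPA and KIF23. The fall of CDK1, PLK1, AURKA, BUB1, PRC1 and TPX2 rested on replicate 2, and for AURKA the specific probe set gave 0.039. The array that stands apart here also had the highest ACTB ratio, and the part of RNA integrity was not tested.

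**Figure D3:**
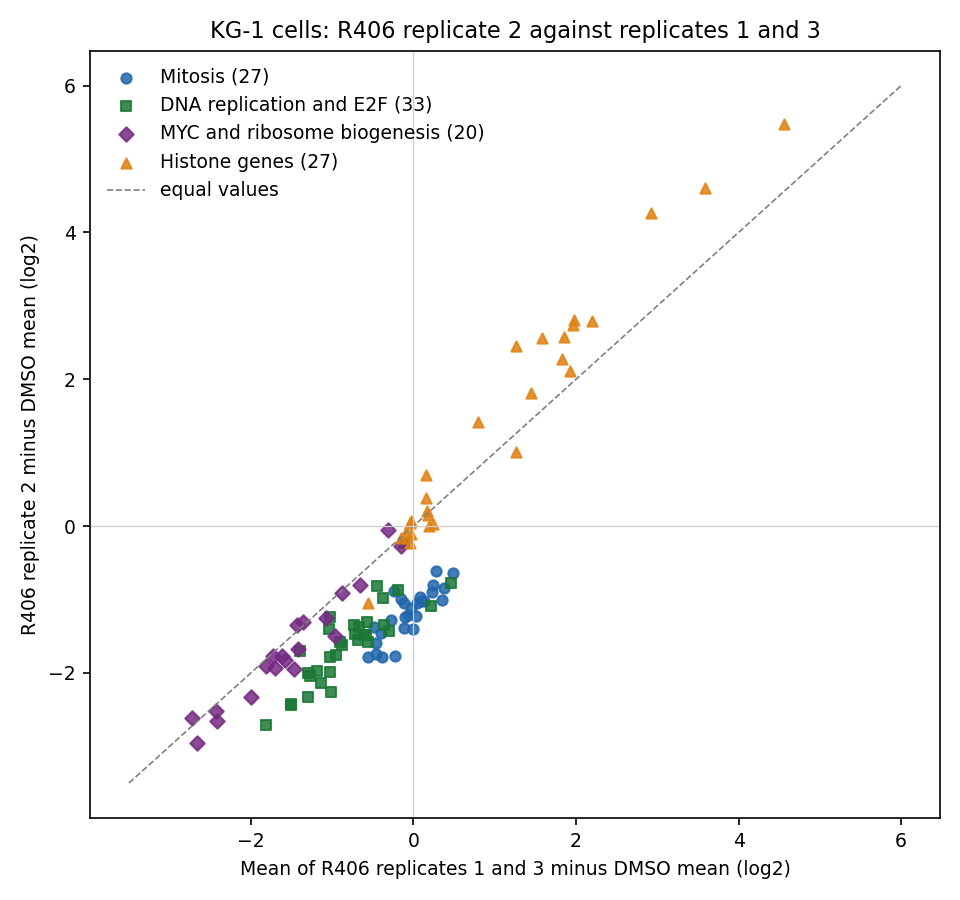
Each point is a gene: the log2 intensity of R406 replicate 2 (vertical axis) against the mean of replicates 1 and 3 (horizontal axis), both minus the DMSO mean, for the members of 4 lists. Mitotic genes lie near 0 on the horizontal axis and below it on the vertical axis, all 27 and all 33 replication genes lie under the dashed line of equal values, and histone genes with large gains lie above it.

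Several inhibitors of the cell cycle rose. CCNG2, a cyclin that rises in resting cells, went from 202, 209 and 213 to 831, 995 and 1067 (2.20 ± 0.095, adjusted p = 3.23e-14), and its 3 probe sets were all called higher. CDKN1C (p57), an inhibitor of cyclin-dependent kinases, went from 8.37, 7.99 and 8.57 to 23.0, 41.9 and 27.2 (1.72 ± 0.14, adjusted p = 7.66e-10). CDKN1B (p27) went from 239, 256 and 239 to 408, 465 and 423 (0.82 ± 0.081, adjusted p = 1.61e-08). The pocket protein RBL2 rose by 1.03 and CDKN2D by 0.87, while the kinase CDK4 fell from 729, 730.1 and 752 to 347, 291 and 346 (-1.17 ± 0.070, adjusted p = 4.72e-12). In the list of G1 cyclins and inhibitors 6 of 14 rose and 3 fell (7 and 3 without R406 replicate 2), and the inhibitors CDKN2A (-0.20 ± 0.12) and RB1 (0.23 ± 0.098) did not pass. CDKN1A (p21), the inhibitor best known as a p53 target, did not pass (0.31 ± 0.16, adjusted p = 0.135). The p53 target list as a whole had 5 genes that rose and 3 that fell of 15 (6 and 2 without R406 replicate 2). Genes linked to FOXO factors, which PI3-kinase and AKT signalling keep out of the nucleus, rose in 12 of 14 cases and fell in none, with a median of 0.78 (0.71 without R406 replicate 2, and the same counts). Among them were PIK3IP1, an inhibitor of PI3-kinase, from 22.4, 17.4 and 20.6 to 80.4, 90.0 and 67.5 (1.92 ± 0.14), the insulin receptor substrate IRS2, from 322, 319 and 333 to 618, 1003 and 713 (1.23 ± 0.10), and BTG1 (0.92), GADD45A (0.74), TXNIP (0.67), FOXO1 (0.59) and FOXO3 (0.40). BCL6, CCNG2, CDKN1B and RBL2 stand in this list as well as in the ones above. KLF6, 1 of the 12, gave -0.12 and was not called with probe sets that can bind several transcripts left out.

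Histone genes gave some of the highest gains. H2AC6 went from 30.4, 37.9 and 38.7 to 864, 1629 and 844, a gain of 29.1-fold (4.86 ± 0.17, adjusted p = 1.24e-15). H2BC5 went from 56.1, 53.3 and 51.2 to 749, 1324 and 567 (3.92 ± 0.22, adjusted p = 1.37e-12), and H2BC21 from 20.8, 18.2 and 17.9 to 178, 382 and 127 (3.37 ± 0.25, adjusted p = 1.54e-10). R406 replicate 2 was highest for all 3, as it was for 16 of the 27 histone genes and for 38.5% of all genes, and without it the changes were 4.55, 3.58 and 2.93. The linker histone gene H1-2, whose probe set is specific by its name, went from 52.4, 47.5 and 57.2 to 200.4, 229 and 203 (1.99 ± 0.093, adjusted p = 1.04e-13). Of 27 measured histone genes, 14 rose, 12 did not pass and H2AZ1, a replication-independent histone of proliferating cells, fell (-0.73 ± 0.095). The median was 1.00, or 0.79 without R406 replicate 2. It was 0.45 with a pseudocount of 16, 0.64 with the mean of a gene's probe sets and 1.94 over the 18 genes left without the dimmest. With probe sets that can bind several transcripts left out, 7 of 18 rose, with a median of 0.17. Histone genes of a family are nearly identical in sequence, and the probe sets of H2AC6, H2BC5 and H2BC21 can bind several of them, so a gain cannot be assigned to 1 gene. The DMSO mean was under 20 for 19 of the 27. In the other lines the median of the histone list was 1.97 in MOLM-14, 0.022 in U937 and -0.029 in HL-60.

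Most progenitor genes and some mast cell genes rose, while the markers of mature myeloid cells moved in both directions. KIT, already high in this line, went from 236, 213 and 237 to 691, 1419.9 and 810.3 (2.02 ± 0.20, adjusted p = 2.00e-08, and 1.71 without replicate 2). CD34 went from 557, 732 and 549 to 1011, 893 and 1095 (0.71 ± 0.14, adjusted p = 1.39e-04). FLT3, another progenitor receptor kinase, went from 34.3, 29.5 and 36.9 to 65.7, 78.4 and 77.8 (1.12 ± 0.14, adjusted p = 5.08e-07). In each case all R406 arrays were above all DMSO arrays. The transcription factors MYB, MEIS1 and ERG rose by 0.71, 0.66 and 0.52 (for ERG on 1 of 3 probe sets, and its specific one gave -0.095) and the growth factor ANGPT1 by 0.86, while LMO2 fell by 0.31. Of 17 measured stem and progenitor genes, 12 rose and 1 fell, with a median of 0.40 (0.66 without the dimmest genes). Without R406 replicate 2, GATA2, RUNX1 and MLLT3 no longer passed, which left 9. CPA3, the carboxypeptidase of mast cell granules, went from 320.0, 289 and 357 to 1262, 1191 and 1357 (1.98 ± 0.091, adjusted p = 7.57e-14). Of 9 measured mast cell and basophil genes, CPA3, KIT, GATA2 and the tryptase TPSAB1 rose, HDC and CLC fell, and FCER1A, GATA1 and IL1RL1 did not pass. FCER1A, the receptor chain that defines these cells, stood at 58.8 and 62.7 on R406 replicates 1 and 3 and at 162 on replicate 2, against 63.0 to 101 in DMSO. Without replicate 2 it was called lower (-0.47, adjusted p = 0.00824) and GATA2 was not called.

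Among 21 monocyte and macrophage genes 4 rose and 4 fell (5 and 4 without R406 replicate 2), with a DMSO mean under 20 for 14 of them. CTSS, a lysosomal protease of antigen-presenting cells, rose from 209, 212 and 243 to 455, 424 and 472 (1.02 ± 0.083, adjusted p = 6.39e-10). The receptor FCGR1A fell by 1.32, but only the probe set that can bind related transcripts was called. CD14, CD68, CSF1R and CD163 did not pass. Of 16 granulocyte genes 4 rose and none fell (4 and 1 without R406 replicate 2), and 14 had a DMSO mean under 20. The aminopeptidase ANPEP (CD13), a marker of the myeloid lineage, rose from 183, 199 and 159.9 to 477, 577 and 472 (1.49 ± 0.15, adjusted p = 1.39e-08), and PTPRC by 0.59, while CEBPA fell by 0.40. Of 10 measured myeloid line markers 6 rose and 2 fell. Of 9 primary granule genes, MPO (1.25 ± 0.15), PRTN3 (0.68 ± 0.18) and SRGN rose, and CTSG (-1.10 ± 0.15) and CTSC fell. Of these 9, 4 rose and 2 fell without R406 replicate 2.

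Antigen presentation and lysosome genes were higher. Of 11 MHC class II genes, 10 rose and none fell, with a median of 1.06 (0.95 without R406 replicate 2). Their master regulator CIITA went from 73.9, 57.6 and 71.4 to 137, 208 and 156 (1.28 ± 0.17, adjusted p = 1.22e-06), although only 1 of its 3 probe sets was called. The invariant chain CD74 went from 478, 435 and 442 to 969, 1004 and 928 (1.10 ± 0.093, adjusted p = 1.40e-09), and HLA-DRA from 2961, 2668 and 2563 to 4489.6, 4821 and 4431 (0.75 ± 0.085, adjusted p = 1.23e-07). HLA-DOA did not pass. Of 12 MHC class I genes, 7 rose and 2 fell (8 and 2 without R406 replicate 2, and 2 and 1 of 8 with probe sets that can bind several transcripts left out), with HLA-E at 1.59 ± 0.071 and B2M at 0.17 ± 0.052. Of 19 lysosomal genes, 13 rose and none fell, with a median of 0.32. PSAP, the saposin precursor, went from 874, 785 and 795 to 1442, 1554 and 1406 (0.84 ± 0.062, adjusted p = 1.27e-10), and the membrane protein LAMP2 rose by 0.89. Interferon response genes moved in no common direction, with 5 of 23 higher and 4 lower. IRF7 rose by 1.71 (SE 0.13) and IFITM1 fell by 0.85 (SE 0.089). Of 20 NF-kB and cytokine genes 7 rose and 2 fell (7 and 1 without R406 replicate 2). The chemokine CXCL8 led them at 1.84 ± 0.12, but its specific probe set gave -0.049 and was not called. Of 14 BCL2 family genes 3 rose and 5 fell, or 3 and 3 without R406 replicate 2. BCL2A1 rose by 0.76 and the pro-apoptotic PMAIP1 fell by 0.74, while MCL1 did not pass, with 1 of its 5 probe sets called lower.

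Targets of the aryl hydrocarbon receptor, a sensor of planar ring compounds, included the cytochrome CYP1A1. Its intensities were 125, 94.7 and 102 in DMSO and 477, 857 and 449 in R406, a gain of 5.29-fold without overlap (2.40 ± 0.18, adjusted p = 1.66e-10, and 2.11 without R406 replicate 2). TIPARP, a direct target that restrains the receptor, went from 72.3, 81.7 and 82.7 to 168, 303 and 195 (1.44 ± 0.16, adjusted p = 6.40e-08). CYP1B1 went from 4266, 4442 and 3952 to 6475, 7934 and 6732 (0.74 ± 0.096, adjusted p = 8.73e-07). The receptor AHR itself fell from 324, 359 and 285 to 159, 156 and 149.9 (-1.05 ± 0.080, adjusted p = 2.70e-10) and NQO1 by 0.44. Of 11 measured genes 6 rose and 2 fell. Among 11 antioxidant genes driven by NRF2, the heme oxygenase HMOX1 (0.92 ± 0.14) and GCLC rose and 5 fell, with the thioredoxin TXN at -0.73 ± 0.084. The core of the response element is GCGTG, searched on both strands, and the CYP1A1 window (chr15:74725479-74725778, minus strand), the member with the smallest p, holds it in capitals.
CYP1A1: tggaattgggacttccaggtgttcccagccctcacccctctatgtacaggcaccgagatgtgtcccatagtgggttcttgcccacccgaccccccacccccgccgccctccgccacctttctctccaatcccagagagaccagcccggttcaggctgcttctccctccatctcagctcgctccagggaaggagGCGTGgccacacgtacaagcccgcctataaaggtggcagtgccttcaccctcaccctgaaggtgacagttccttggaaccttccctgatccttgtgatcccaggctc
Of the 9 windows found for this list 6 held these 5 letters (66.7%), as did 36.3% of all windows and 46.5% of those of measured genes, so a short match of this kind is common.

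The genes with the highest gains outside the histones belonged to no list above, and COL3A1 is on the fibroblast and epithelial list below. FMO1, a flavin monooxygenase, went from 20.2, 20.03 and 15.9 to 386, 839 and 465, a gain of 27.1-fold (4.76 ± 0.18, adjusted p = 4.25e-15). ADGRG6, an adhesion G protein-coupled receptor, went from 10.4, 7.97 and 7.70 to 155, 419 and 179 (4.57 ± 0.21, adjusted p = 1.15e-13, and 4.12 without replicate 2). COL3A1, a fibrillar collagen chain, went from 6.57, 7.70 and 7.90 to 134, 185 and 96.6 (4.01 ± 0.14, adjusted p = 1.00e-15), with 3 of 4 probe sets called higher. In DMSO these 3 genes lay at or below the array median, and on every R406 array they lay far above it. DPEP2, a membrane dipeptidase, rose by 3.07, the flippase ATP9A by 2.96, the sodium channel SCN3A by 2.87, the protease PRSS23 by 2.67, LDLRAD4 by 2.54 and STAG3L1 by 2.48. Among the falls outside the lists, KCTD12, a subunit of GABA-B receptor complexes, went from 86.2, 96.1 and 84.7 to 13.4, 13.4 and 15.7 (-2.57 ± 0.13, adjusted p = 3.42e-13). HEG1, a membrane mucin, went from 84.6, 96.5 and 79.1 to 13.8, 12.9 and 14.6 (-2.57 ± 0.092, adjusted p = 1.91e-15), and the metal transporter SLC39A14 fell by 2.55.

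Markers of other cell types were examined beside these gains. Of 12 fibroblast and epithelial markers COL3A1, KRT18 and VIM rose and none fell, while COL1A1, COL1A2, DCN, LUM, FN1, EPCAM, CDH1, KRT8 and KRT19 did not pass, and 10 of the 12 had a DMSO mean under 20. Their summed intensity was 451 to 565 in DMSO and 755 to 933 in R406. Of 13 T and NK cell markers, LCK (2.10), NKG7 (1.01), CD247 (1.01) and CD8A (0.36) rose, and CD3D, CD3E, CD3G, CD2 and CD4 did not pass. Of the 13, 5 rose without R406 replicate 2. Their summed intensity was 485 to 511 in DMSO and 950.5 to 1019 in R406. Of 8 B cell markers IGHM rose (0.87) and CD79A, CD79B, MS4A1 and PAX5 did not pass, with sums of 456 to 483 and 742 to 899.6. VPREB1 was also called higher without R406 replicate 2. Of 10 erythroid genes HBD (1.83) and HBB (0.33) rose and the transferrin receptor TFRC fell (-0.84). The sums were 4795 to 5327 in DMSO and 2887 to 3127 in R406. For 7 of the 10 the DMSO mean was under 20, so these sums rest on few genes, and TFRC was the only member called lower. Of 10 megakaryocyte genes PF4 and PPBP rose and ITGA2B and VWF fell, with sums of 175 to 208 and 126 to 137. Of 12 dendritic cell genes CD1C and ITGAX rose and CD83 and FSCN1 fell, with overlapping sums of 329 to 383 and 275 to 382. The falls of CD83 and FSCN1 and the gain of PPBP did not pass without R406 replicate 2. The mast cell and basophil sums were 1933 to 2071 and 3597 to 5175. The sums of the fibroblast and epithelial, T and NK cell and B cell lists rest on few genes as well. In these lists the DMSO mean was under 20 for 10 of 12, 9 of 13 and 5 of 8 members. The part of other cell types in the results was not tested.

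Whether the response of KG-1 differed from that of the other lines was tested directly, as the KG-1 change minus the mean change in MOLM-14, U937 and HL-60. This difference passed for 1875 genes in the higher (15.4%) and 1822 in the lower direction (15%), of which 1543 (12.7%) and 1509 (12.4%) also passed without R406 replicate 2. With each array centred on its median the counts were 1473 higher and 2363 lower. Among the genes that passed both with and without that array, the 10 furthest in each direction are plotted by line. FMO1, ADGRG6, COL3A1, SCN3A and PRSS23 changed by between -0.099 and 0.23 in each of the other lines, with differences of 4.67, 4.59, 3.98, 2.92 and 2.55. KCTD12 fell in KG-1 by 2.57 and gave 1.17, 0.12 and 0.46 in MOLM-14, U937 and HL-60 (difference -3.15). ITGAM gave 0.51, 0.76 and 0.71 in the other lines against -1.80 in KG-1 (difference -2.46, subject to the disagreement of its probe sets). HES1, a target of Notch signalling, gave 3.81 in MOLM-14 and -0.99 in KG-1 (difference -2.38), and its specific probe set gave 0.18 in KG-1 and was not called. TNFSF10 (TRAIL), a death ligand, gave 1.65 in MOLM-14 and -1.22 in KG-1, and the chaperone FKBP11 0.83 and -2.02. PRTN3, at -3.21 in MOLM-14 and -2.36 in HL-60, stood at 0.68 in KG-1, where its intensities were only 11.7 to 37.3. DUSP6 and ETV5 changed in KG-1 and MOLM-14 alike in direction, at -3.85 and -3.99 for DUSP6 and -3.09 and -3.46 for ETV5, while U937 gave 0.028 and -0.81 and HL-60 gave 1.10 and 0.56. The differences from the mean of the other lines were -2.90 and -1.85.

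**Figure D4:**
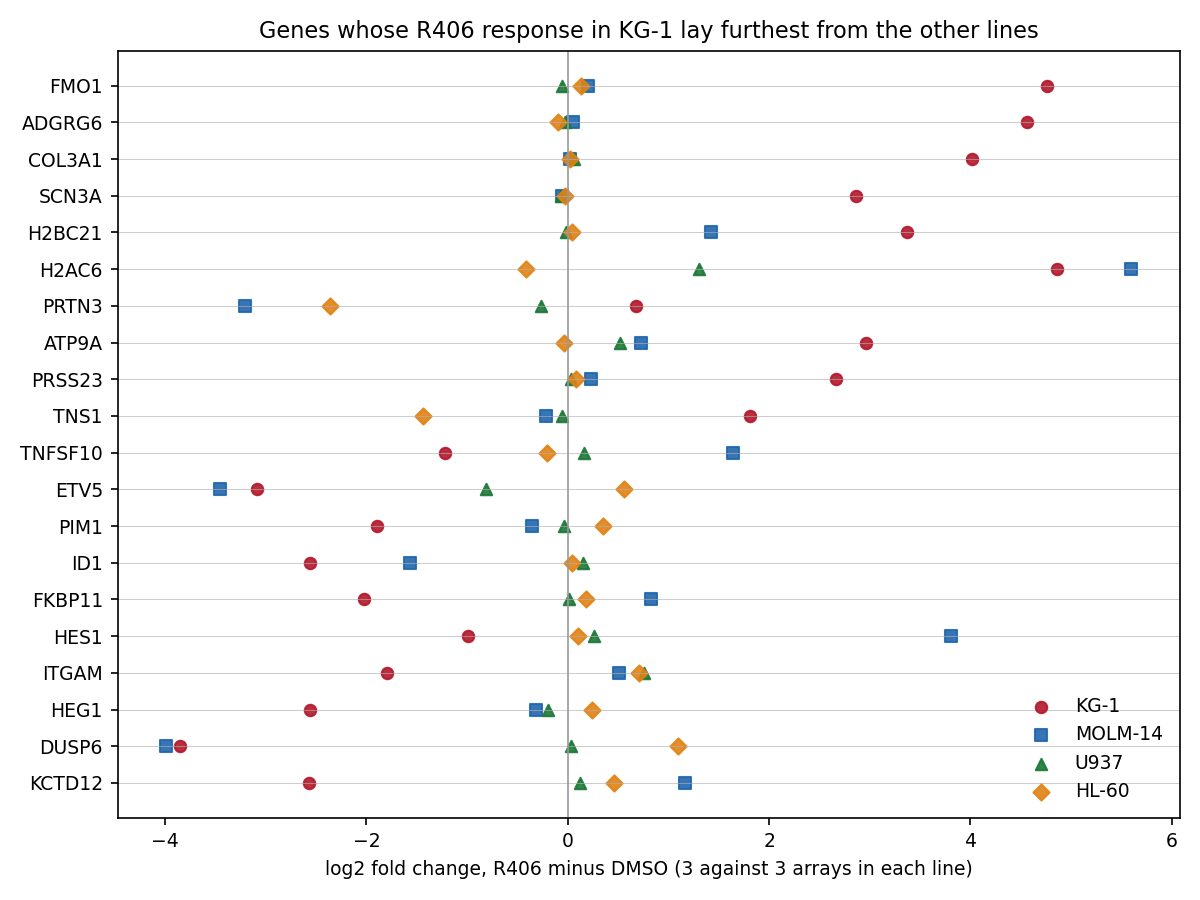
Log2 change after R406 (horizontal axis) in each of the 4 lines for the 20 genes whose KG-1 change lay furthest from the mean of the other lines, ordered by that difference. FMO1, ADGRG6 and COL3A1 lie beyond 4 in KG-1 and near 0 in the other lines, while for DUSP6 and ETV5 the MOLM-14 point lies beside that of KG-1.

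The genes in which R406 replicate 2 lay furthest from replicates 1 and 3 are described without a test, since that distance chose them. Furthest below were MS4A4A, IGLL1, CEP55, SPA17, VPREB1, CDC20, CDKN3 and GPR171, of which CEP55, CDC20 and CDKN3 act in mitosis or the cell cycle. MS4A4A, a macrophage surface protein, stood at 83.3, 12.5 and 70.7 in R406 against 57.2 to 62.1 in DMSO, and IGLL1, a chain of the pre-B cell receptor, at 127, 37.9 and 142 against 23.7 to 33.5. Furthest above were TF, CSN1S1, H2AC8, ADGRG6, H2BC21, TPSAB1, FCER1A and KLRB1. KLRB1, an NK cell receptor, stood at 49.4, 159 and 68.3 against 26.2 to 34.9. For IGLL1, ADGRG6, H2BC21 and KLRB1 all 3 R406 arrays lay above the DMSO arrays, so the direction did not rest on replicate 2, whereas for MS4A4A and SPA17 it turned without that array, from -0.48 to 0.36 and from -0.0083 to 0.50.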

How the data were processed

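RNA of 24 samples was hybridised to Affymetrix expression arrays, and the values analysed here are those of the deposited value table. Per the submitters' processing notes the authors used RMA, whose version is not given in the sources used here. The deposited values are intensities on a linear scale, which were turned into log2 of intensity plus 1. Depth is not defined for arrays, and their number, 3 a group, limits the precision. Of 22277 probe sets, 19724 name a single symbol in the platform annotation, 568 name several, 1923 none, and 62 are controls. The brightest probe set over all arrays stood for each of 12165 genes, and for 5096 genes this probe set can bind several transcripts by its name.

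A model with 8 groups (cell line and treatment) was fitted to all 24 arrays with limma 3.58.1 in R 4.3.3, with p-values adjusted by Benjamini and Hochberg over all genes and called under 0.05. Changes are given as log2 with the SE from this fit. The scripts were tested on simulated data. The lists (41, with 617 of 698 distinct members measured), the members and the named genes were chosen with earlier results of these data known. The text names the 12 highest and 12 lowest changes called with and without R406 replicate 2 with no overlap of arrays, up to 4 members of each list by smallest p, members where it says which passed, SYK, ITGB3, FLT3, FGFR1, MYC, DUSP6, CYP1A1, CDKN1A, CD34 and ITGAM, the 10 furthest differences between lines in each direction, and the 8 genes furthest above and below in R406 replicate 2. The E-box was chosen after the values were seen. No set test was run, and lists are described by counts and medians. Alternatives were each array left out, KG-1 arrays alone, array weights, repeated quantile normalization, median centring, pseudocounts of 0 and 16, dim genes left out, other choices of probe set, a variance trend and the replicate number as a block.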

Additional observations from a re-analysis of the deposited data

Results flagged for a closer look

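The following 20 genes had a log2 change after R406 in KG-1 that differed from the mean change in MOLM-14, U937 and HL-60, by the test of that difference in the fit of all arrays (limma, adjusted p under 0.05), with and without R406 replicate 2. They are the 10 furthest in each direction, and the value in brackets is the difference on the log2 scale. The change in KG-1 was the lower for KCTD12 (-3.15), DUSP6 (-2.9), HEG1 (-2.48), ITGAM (-2.46), HES1 (-2.38), FKBP11 (-2.36), ID1 (-2.11), PIM1 (-1.88), ETV5 (-1.85), TNFSF10 (-1.76). It was the higher for FMO1 (4.67), ADGRG6 (4.59), COL3A1 (3.98), SCN3A (2.92), H2BC21 (2.89), H2AC6 (2.7), PRTN3 (2.63), ATP9A (2.56), PRSS23 (2.55), TNS1 (2.38). A difference from the mean of the other lines does not set KG-1 apart from each of them. DUSP6 and ETV5 also fell in MOLM-14, as given above, and the histone list had a median of 1.97 there. For HES1 and ITGAM the specific probe set did not show the change in KG-1, and H2AC6 and H2BC21 have near-identical copies.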

How the results depend on the processing

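Leaving out single arrays gave 2647 to 2840 genes called higher and 2358 to 2531 lower in KG-1, and 1634 to 1931 and 1601 to 1924 for the difference between lines. The ACTB and GAPDH ratio differences then ran from 0.0653 to 0.153 and from 0.0742 to 0.133, and repeated quantile normalization gave 0.00985 for ACTB. With probe sets that can bind several transcripts left out, fewer genes were tested, and 1782 were higher and 1459 lower, or 1181 and 1007 for the difference between lines. At 2-fold or more, 422 were higher and 537 lower, or 215 and 118. The remaining alternatives left these counts within 1.5 times. Median centring changed the share of higher among called genes from 53% to 44.1%. The replicate number was used as a block although the labels do not say that it pairs the arrays. The correlations of deviations between KG-1 arrays of the same number were 0.0408, -0.0124 and -0.00131. The block gave 2845 higher and 2529 lower, and of the named genes 5 lost their call and 2 gained it. In the fit of the KG-1 arrays alone 40 lost it, or 36 with R406 replicate 2 also left out, without that array 23, and with array weights 16.

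Some values changed sign, and the cause was not tested. With probe sets that can bind several transcripts left out, the log2 change was 0.039 for AURKA, -0.049 for CXCL8, -0.065 for DNAJB9, -0.095 for ERG, 0.018 for FCGR1A, -0.036 for FPR1, 0.18 for HES1, 0.10 for ITGAM, -0.088 for ITGB1, -0.12 for KLF6 and -0.42 for RPS14, and the list median 0.036 for immediate early and -0.16 for fibroblast and epithelial genes. The mean of a gene's probe sets gave -0.30 for MCL1, -0.0049 for RPL18 and -0.097 for RPS14. Leaving out single KG-1 arrays moved CCNB2 between -0.37 and 0.23, CENPE between -0.36 and 0.35, CENPF between -0.25 and 0.38, FCER1A between -0.47 and 0.26, MS4A4A between -0.96 and 0.36, NUSAP1 between -0.17 and 0.28, SPA17 between -0.36 and 0.50 and TOP2A between -0.28 and 0.24, with the end that changed sign reached without R406 replicate 2. Centring gave list medians of -0.027 for granulocyte and -0.018 for erythroid genes. The immediate early median ran from -0.064 to 0.024, the latter without DMSO replicate 1, and was 0.0028 without R406 replicate 1. With 3 arrays a group, dim genes such as ITGB3, EGR1 and FOS allow no firm statement.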
